A study of Homo sapiens with 6 samples.

Results

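Broad H3K27ac peaks were taken as the entries of the authors' H3K27ac peak list that span at least 2000 bp on chromosomes 1 to 22 and X. The rule returned 3494 of 78639 peaks, or 4.44%, and these covered 9.96 Mb of the 47.1 Mb under all peaks (21.1%). They were thus chosen by their measured width. KOLF2.1J, an iPSC line in common use, was the source of the neural progenitors that gave rise to the neurons assayed, and no treatment or genotype contrast was made. All libraries came from this 1 line, so nothing here speaks to other lines. Chromatin immunoprecipitation followed by sequencing was done with antibodies against H3K27ac and CTCF, with 2 libraries each and 2 input libraries. The peak lists join both libraries of an antibody, so no spread between replicates and no read depth could be given, and the values below describe the joined lists. The submitters' processing notes name the build hg38, and positions are 1-based.

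H3K27ac is the acetylated form of lysine 27 on histone H3, laid down by the acetyltransferases EP300 and CREBBP on nucleosomes beside active promoters and enhancers. It spreads over more than a single nucleosome where several regulatory elements lie close together or where a strongly used promoter continues into the gene body. Long stretches of the mark are known from genes that set cell identity, such as lineage transcription factors, and from some very active general genes. CTCF is a zinc finger protein that binds a long DNA motif, halts the cohesin ring and so anchors chromatin loops.

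The sequence before gene starts that lay inside some of the widest peaks is shown next. The sequences below are the 250 bases that precede the annotated start of 5 genes with a start inside such a peak, from RefSeq (GRCh38.p14), each written 5′ to 3′ on the gene's own strand with CpG dinucleotides in capitals. They are shown because starts in the widest peaks followed sequences of very different base composition. The broad peak reached only 26 bp upstream of the SOX2 start and 35 bp upstream of the DUSP6 start. Most of each of those sequences therefore lay outside that peak. At SOX2 a further broad peak lay upstream, in a run of 3 that began at chr3:181709745.
ZIC1 (chr3:147409115-147409364, plus strand): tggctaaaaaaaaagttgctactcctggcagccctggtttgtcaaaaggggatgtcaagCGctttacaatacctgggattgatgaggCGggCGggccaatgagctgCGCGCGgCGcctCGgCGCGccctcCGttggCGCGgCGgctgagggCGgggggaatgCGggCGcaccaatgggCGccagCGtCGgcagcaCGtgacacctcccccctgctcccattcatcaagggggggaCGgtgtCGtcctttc
SOX2 (chr3:181711675-181711924, plus strand): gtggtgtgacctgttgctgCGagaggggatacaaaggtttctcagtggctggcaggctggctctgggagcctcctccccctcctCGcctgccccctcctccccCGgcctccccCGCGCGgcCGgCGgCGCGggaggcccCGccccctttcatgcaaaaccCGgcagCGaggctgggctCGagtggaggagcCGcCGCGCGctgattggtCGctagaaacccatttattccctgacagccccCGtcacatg
DUSP6 (chr12:89352502-89352751, minus strand): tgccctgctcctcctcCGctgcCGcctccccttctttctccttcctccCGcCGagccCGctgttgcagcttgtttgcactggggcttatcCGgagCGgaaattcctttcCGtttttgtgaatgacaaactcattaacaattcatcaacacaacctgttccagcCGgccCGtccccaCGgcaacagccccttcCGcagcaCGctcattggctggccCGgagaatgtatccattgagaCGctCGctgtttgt
TUBB2B (chr6:3227654-3227903, minus strand): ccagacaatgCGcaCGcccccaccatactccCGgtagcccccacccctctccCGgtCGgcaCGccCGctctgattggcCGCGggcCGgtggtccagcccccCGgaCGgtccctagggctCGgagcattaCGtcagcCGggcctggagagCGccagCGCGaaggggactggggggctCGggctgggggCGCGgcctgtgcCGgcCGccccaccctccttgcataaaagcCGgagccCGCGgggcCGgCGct
ZMYND8 (chr20:47356700-47356949, minus strand): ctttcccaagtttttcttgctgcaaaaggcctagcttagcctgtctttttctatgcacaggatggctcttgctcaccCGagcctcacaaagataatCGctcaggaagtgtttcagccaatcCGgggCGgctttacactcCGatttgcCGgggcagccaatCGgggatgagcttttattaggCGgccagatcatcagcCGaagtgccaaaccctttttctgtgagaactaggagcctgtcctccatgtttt
ZIC1, a zinc finger factor of the dorsal neural tube, had 23 CpG dinucleotides in these 250 bases and SOX2, a factor that maintains neural progenitors, had 20. The promoter of DUSP6, a phosphatase that restrains ERK signalling, had 16, and that of TUBB2B, a beta tubulin of growing neurons, had 28. The sequence before the ZMYND8 start shown, which lay in the widest peak of all, had 9. Another listed ZMYND8 start in that peak had 4. The peak that held the ZIC1 start also held starts of ZIC4 with 2, 7 and 9. ZMYND8 encodes a reader of acetylated histones.

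A set of mature microRNAs is shown as well, since at least 1 hairpin of each lay inside a broad peak. The seed, bases 2 to 8, is in capitals.
miR-9-5p: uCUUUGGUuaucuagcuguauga
miR-9-3p: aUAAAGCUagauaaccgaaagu
miR-125b-5p: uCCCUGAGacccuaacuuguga
let-7i-5p: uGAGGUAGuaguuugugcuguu
miR-92b-3p: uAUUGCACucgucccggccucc
All 3 genomic copies of miR-9, a microRNA that promotes neuronal differentiation, lay in broad peaks, and their mature products share the seeds CUUUGGU (5p arm) and UAAAGCU (3p arm). The peak at MIR9-2 on chromosome 5 was 6263 bp wide with a fold enrichment of 20.8. That at MIR9-1 on chromosome 1 was 2891 bp wide (fold enrichment 9.36), and that at MIR9-3 on chromosome 15 was 2552 bp wide (fold enrichment 24.3). MIR125B1, which gives miR-125b, lay in a peak of 8136 bp, the widest that held a hairpin. MIRLET7I, a member of the let-7 family that restrains the progenitor state, lay in a peak of 3610 bp, and MIR92B lay in one of 5872 bp. In all, 37 of the 1558 hairpins in the RefSeq table (2.37%) were inside a broad peak, and 9.50% overlapped an H3K27ac peak of any width.

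The widths and enrichments of the broad peaks are described first, without a test, because width chose them and the enrichment comes from the same libraries. The fold enrichment is the authors' value at the summit of each peak over background. The median width was 2524.5 bp, with quartiles at 2217 and 3117.5 bp, and the widest peak reached 13646 bp. At least 3 kb was spanned by 997 peaks, at least 6 kb by 62 and at least 10 kb by 5. The median fold enrichment of the broad peaks was 20.5 (quartiles 13.4 and 31.0), against 4.61 (3.53 and 7.39) in the 75145 narrower peaks. A fold enrichment above the median of all peaks was found in 3478 of the 3494, and 25 were under 5. None of the broad peaks had a q-value above 0.05, whereas 5444 narrower peaks (7.24%) did. The q-values come from the same libraries as the widths. Across all 78639 peaks Spearman's rho of width and fold enrichment was 0.69, where both values come from the same reads. Across the broad peaks alone it was 0.18, over a range of widths that the threshold cut short, so the values cannot be set against each other. Peaks of the highest decile of fold enrichment were broad in 28.7% of cases, against 4.44% of all peaks. Of the broad peaks 64.7% fell in that decile, although most peaks of the decile were narrower than 2 kb.

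**Figure D1:**
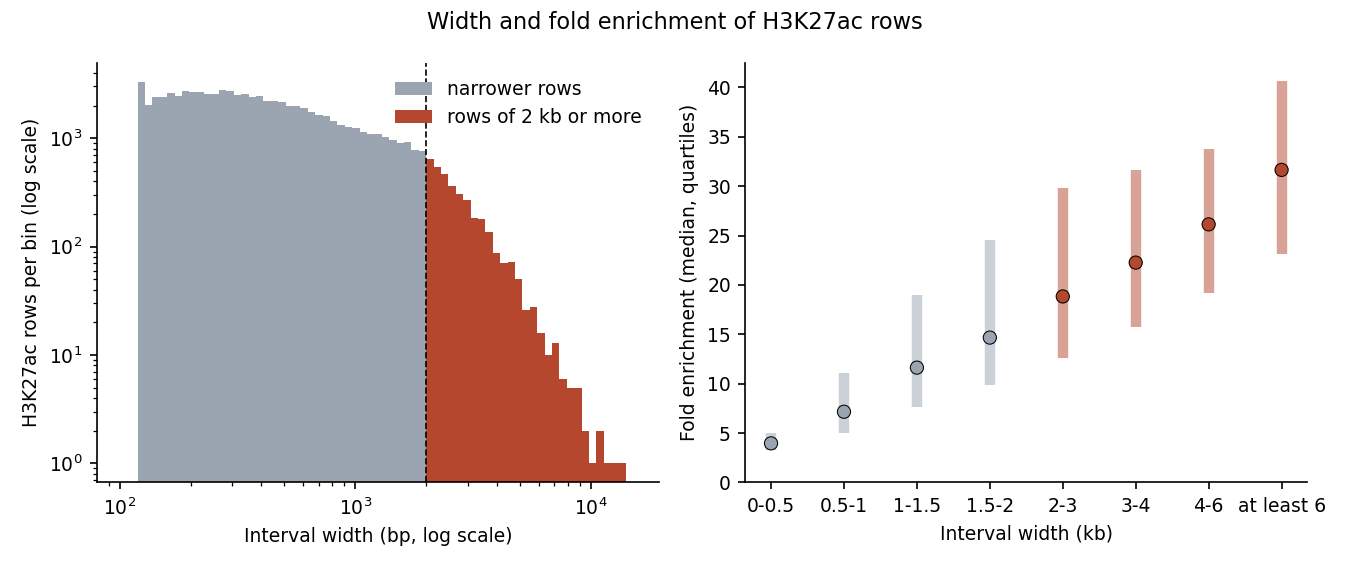
Left, number of H3K27ac peaks (called rows in the plots) per bin of interval width (both axes log scale), with the threshold of 2000 bp dashed. Right, median (points) and quartiles (bars) of fold enrichment in 8 classes of width, rising from 3.96 in the narrowest class to 31.6 in peaks of at least 6 kb with no jump at the threshold.

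No gap in the distribution set the broad peaks apart: 547 peaks were up to 100 bp narrower than the threshold and 452 lay in the first 100 bp from it. Just inside the threshold, at 2000 bp, lay peaks in NRG3, ARHGAP24 and NYAP1 with fold enrichments of 10.6, 12.0 and 5.76. Just outside, at 1999 bp, lay peaks in PREX1, ATP2C1 and SASH1 with fold enrichments of 14.5, 39.1 and 46.0. The median fold enrichment was 14.7 in peaks of 1.5 to 2 kb, 18.8 in those of 2 to 3 kb, 26.1 in those of 4 to 6 kb and 31.6 in those of at least 6 kb. The summit lay in the middle 20% of the interval in 35.0% of the broad peaks and in 32.2% of the narrower ones. It was within 10% of the width from either end in 4.61% and 3.06%.

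The widest peak, chr20:47348467-47362112, covered starts of ZMYND8 and had a fold enrichment of 34.8. The next, chr3:181719120-181731696, was 12577 bp wide with a fold enrichment of 41.0. It lay inside SOX2-OT, the long noncoding transcript that runs across SOX2, and 4.68 kb beyond the end of SOX2 itself. A separate broad peak of 7133 bp with a fold enrichment of 29.3 covered SOX2. The next, chr14:76916458-76927894, was 11437 bp wide with a fold enrichment of 46.5, and it overlapped no protein-coding, long noncoding or microRNA gene. It lay 96.6 kb from IRF2BPL, whose product is a nuclear regulator expressed in neurons. It was followed by chr12:120358230-120369194, which was 10965 bp wide with a fold enrichment of 50.3 and lay over MSI1, an RNA-binding protein of neural stem cells. Then came chr1:156666569-156677379, 10811 bp wide with a fold enrichment of 35.3. It lay over NES, which encodes the progenitor intermediate filament nestin, and it ended 28 bp short of the annotated NES start.

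Further down the order, 3 of the 10 widest peaks lay near one another at ZIC1 and ZIC4, a divergent pair of zinc finger genes. Shorter broad peaks lay between them. The widths of the 3 were 9874, 9688 and 8816 bp. The widest of these had a fold enrichment of only 11.3, at percentile 15.7 of the broad peaks, so that a very long interval was here also a low one. The others reached 23.7 and 24.7. The remaining peaks among the 10 widest lay at MIR9-2HG, the host transcript of miR-9, with 9449 bp and a fold enrichment of 37.8, and at MN1, a transcriptional coactivator, with 9067 bp and 35.2.

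The 5 peaks with the highest fold enrichment are named next. They lay at LRP6 (fold enrichment 98.9), a WNT co-receptor, USP1 (97.97), a deubiquitinase of DNA repair, HSPA9 (90.1), a mitochondrial chaperone, PRDM10 (87.4) and GABPB1 (86.8), a subunit of an ETS factor. Their widths ran from 2245 to 3441 bp, and none of the 5 met a CTCF peak, as was true of 56.9% of all broad peaks. None of them was among the 10 widest, but 5 of 3494 broad peaks are too few to read anything into that.

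Broad peaks also came in runs. Another broad peak lay within 10 kb of 628 of them (17.97%), which formed 273 runs, 65 of them with at least 3. The largest held 5 each. At ZIC4 and ZIC1 5 broad peaks covered 32897 bp within 37893 bp of chromosome 3. At ZIC5 and ZIC2, the other divergent ZIC pair, 5 covered 27673 bp within 37371 bp of chromosome 13, with fold enrichments of 22.3, 29.4, 27.5, 50.6 and 36.8 in order of position. The other runs of 5 lay at POU3F3 on chromosome 2 (22870 bp), a POU factor of cortical neurons, at IRF2BPL on chromosome 14 (20920 bp) and at TTYH3 on chromosome 7 (17329 bp). Runs of 4 were found at POU3F2, SKIDA1, SRC, NR2F1, ZFHX3 and ATOH8, among others. Neighbouring intervals were close: the median gap from a broad peak to the nearest other peak of any width was 252 bp, and it was 249 bp for narrower peaks. When peaks less than 500 bp apart were joined, 7345 intervals reached 2000 bp instead of 3494, so the number of broad intervals depends on how neighbours are joined.

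**Figure D2:**
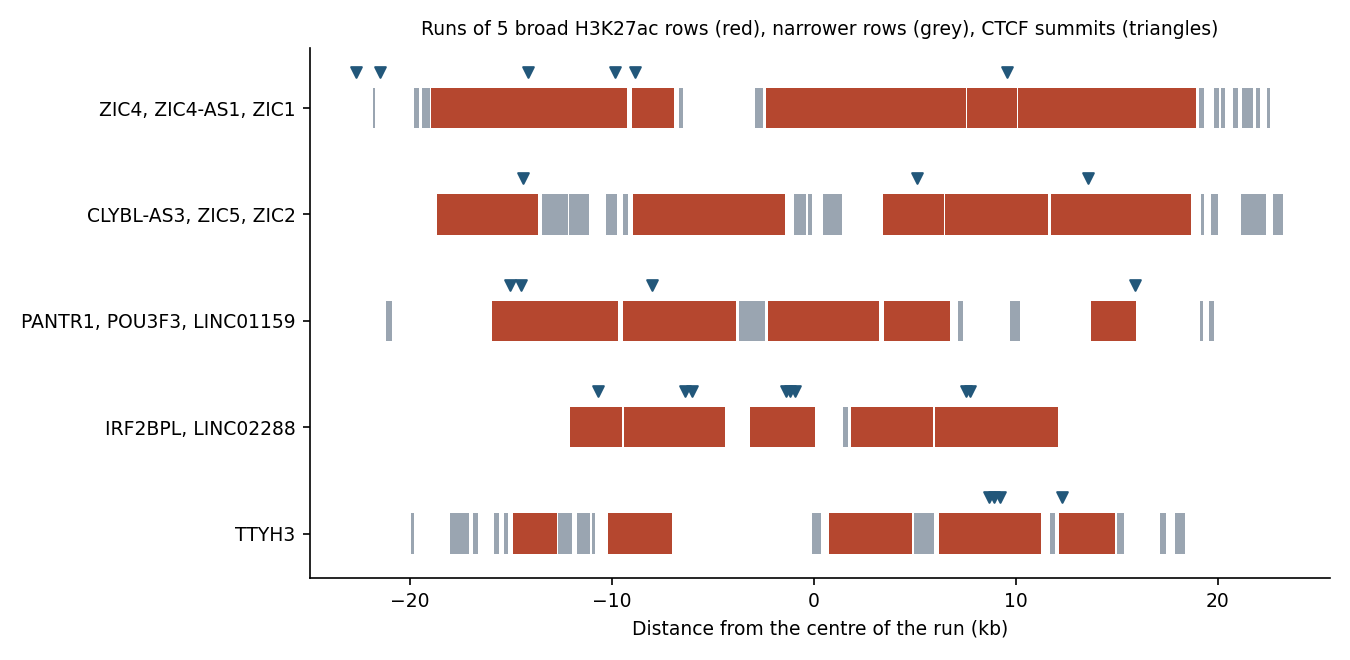
The 5 runs of 5 broad H3K27ac peaks (red), with narrower H3K27ac peaks (grey) and CTCF summits (blue triangles), plotted as distance in kb from the centre of each run. Gaps of unequal size divide each run, and the ZIC4 and ZIC1 run is the longest, at 37893 bp.

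Genes were then set against the broad peaks. A protein-coding gene overlapped 2735 of the 3494 broad peaks, 78.3% (95% Wilson interval 76.9 to 79.6%), against 63.9% of all peaks. In peaks of 1.5 to 2 kb the same was true of 77.4% (76.0 to 78.8%), close to the broad peaks. The Wilson intervals here and below cover counting error only. A start of a protein-coding gene lay inside 1494 broad peaks, 42.8% (41.1 to 44.4%), against 11.0% of all peaks. Starts came from the RefSeq promoter table for the 15812 of 19974 genes listed there, and for the others either end of the gene was counted. With known starts alone the share was 36.7%. The share was 42.2% in peaks of 1.5 to 2 kb, 43.1% in peaks of 2 to 3 kb and 41.3% in peaks of 4 to 6 kb. In the 62 peaks of at least 6 kb it was 50% (37.9 to 62.1%), the highest of the classes, and the intervals of all of these overlapped. A start of a long noncoding RNA lay in 478 broad peaks, 13.7%, against 2.65% of all peaks. Longer intervals cover more positions of any kind, and no allowance was made for that in these shares.

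Most broad peaks thus held no protein-coding start. Of these 2000, 1241 lay within a protein-coding gene or over its edge away from any listed start. They were 35.5% of the broad peaks, and the same held for 52.9% of all peaks. Another 445, or 12.7% of the broad peaks, overlapped no protein-coding, long noncoding or microRNA gene, against 25.6% of all peaks. For the 2000 broad peaks without a start, the nearest one was a median of 33.9 kb away, against 28.6 kb for such narrower peaks. It was more than 100 kb away in 477 (23.85%), close to the 24.5% of narrower peaks without a start. The median fold enrichment was 28.2 in broad peaks with a start and 16.8 in those without, and the median widths were 2487.5 and 2546 bp. The widest peaks without a gene, after that on chromosome 14, were of 8177 bp between CDK5RAP3 and COPZ2 on chromosome 17 (fold enrichment 40.7) and of 6261 bp on chromosome 7 (52.8). The latter lay 71.9 kb from PTPRZ1, a receptor phosphatase of radial glia. A peak of 6102 bp (fold enrichment 20.5) lay 4.82 kb from POU3F2, which encodes a neuronal POU factor, and a peak of 5464 bp (fold enrichment 21.2) on chromosome 5 lay 660 kb from ZNF608.

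The strand of the listed starts allowed the reach of the peaks to be measured. In 799 broad peaks with a single listed start, the interval extended a median of 1044 bp upstream (quartiles 691.5 and 1437 bp) and 1496 bp downstream (1097 and 2051 bp). It reached further downstream than upstream in 528 of the 799, 66.1% (62.7 to 69.3%). In narrower peaks with a single start the same was true of 77.9% (76.7 to 79.0%), with medians of 136.5 bp upstream and 624 bp downstream. The intervals of these shares did not meet, but that of peaks of 1 to 2 kb (71.2%, 69.3 to 73.0%) just met that of the broad peaks. The summit lay within 500 bp of the start in 69.5% of the broad peaks. That was less often than in narrower peaks (95.8%) and in peaks of 1 to 2 kb (91.6%). Single peaks departed widely from the median. At DUSP6 the peak reached 35 bp upstream and 7362 bp downstream, and at SOX2 26 and 7106 bp. The SOX2 peak belonged to a run of 3 broad peaks that covered 21721 bp within 21952 bp. A further broad peak of that run lay upstream of it, so the mark itself did not end there. At TUBB2B it reached 6060 bp upstream and 1594 bp downstream, with the summit at -3877 bp from the start. Starts on both strands were held by 122 of 1282 broad peaks with a known start (9.52%) and by 365 of 6176 such narrower peaks (5.91%).

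The promoters inside broad peaks were compared in sequence with those inside narrower ones, over 300 bp from 250 before to 50 after each listed start. The broad peaks held 2027 listed promoters of 1385 genes, assigned by their start, so that a promoter could extend past its peak. Their median CpG content was 27 dinucleotides, against 26 in the 7611 promoters inside narrower peaks and 12 in the 12494 promoters in no H3K27ac peak. An observed to expected CpG ratio of at least 0.6 was found in 81.7% of the promoters in broad peaks, against 62.2% of all promoters and 84.7% of those in narrower peaks. Base composition therefore separated promoters with and without the mark far more than broad from narrow. The GC box GGGCGG, bound by SP factors, was searched on both strands like all motifs here. It was present in 68.8% of promoters in broad peaks (66.7 to 70.8%), against 68.5% in narrower peaks and 56.3% of all promoters. The CCAAT box was present in 28.4% (26.5 to 30.4%), against 34.3% in narrower peaks (33.2 to 35.3%) and 34.6% overall. The TATA box word TATAAA was present in 6.36% (5.38 to 7.51%), against 4.80% in narrower peaks (4.34 to 5.30%) and 9.46% overall. For these last motifs the intervals of broad and narrower peaks did not meet. In peaks of 1 to 2 kb the CCAAT share was 31.4% (30.0 to 32.9%) and the TATAAA share 4.16% (3.59 to 4.81%), and for CCAAT this interval met that of the broad peaks. The cyclic AMP response element TGACGTCA (2.71%, 2.26% of all promoters), the E-box CAGCTG (16.2%, 18.0%), the SOX word AACAAAG (4.14%, 4.30%) and a word of the NRF1 motif (1.83%, 1.50%) had intervals that met those of the narrower peaks. So did the homeodomain word TAATTA (1.92%, 3.40%) and a word from the CTCF motif (2.17%, 2.52%). Promoters of 1 gene overlap in part, and a match is no evidence of binding.

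**Figure D3:**
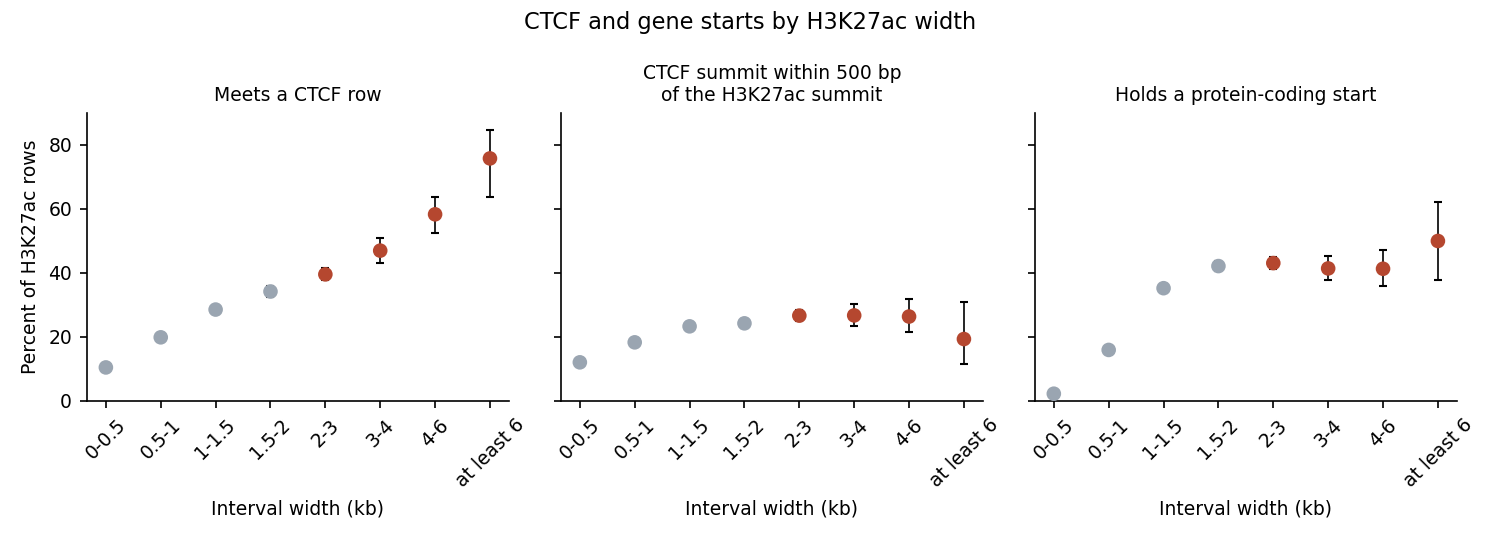
Percent of H3K27ac peaks, by class of interval width in kb, that meet a CTCF peak (left), that have a CTCF summit within 500 bp of their own summit (middle) and that hold a protein-coding start (right), with 95% Wilson intervals. Red marks widths of 2 kb or more. The left share climbs to 75.8%, whereas from 1.5 kb on the intervals overlap in the middle panel and in the right panel, where the widest class is the highest at 50%.

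CTCF was measured in libraries that played no part in choosing the broad peaks. A CTCF peak was met by 1507 broad peaks, 43.1% (41.5 to 44.8%), against 16.2% of all H3K27ac peaks and 14.97% of narrower ones. The share rose with width, from 39.6% at 2 to 3 kb to 58.3% at 4 to 6 kb and 75.8% at 6 kb or more. A CTCF summit lay inside 1415 broad peaks (40.5%), against 8.43% of all. A window of fixed size is the same for every width. A CTCF summit lay within 500 bp of the H3K27ac summit in 26.5% of broad peaks (25.1 to 28.0%), against 15.4% of all H3K27ac peaks and 14.8% of narrower ones (14.6 to 15.1%). This share did not rise beyond 2 kb: it was 26.7% at 2 to 3 kb, 26.7% at 3 to 4 kb, 26.4% at 4 to 6 kb and 19.4% at 6 kb or more (11.4 to 30.9%). The broad peaks stood above the narrower ones on 22 of 23 chromosomes; chromosome 22 was the exception, with 17.1% and 18.3%.

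The shares were higher where a gene start was present. Among peaks with a protein-coding start, a CTCF summit lay within 500 bp of the summit in 39.1% of broad (36.6 to 41.6%) and 33.8% of narrower peaks (32.7 to 34.9%). Among peaks without a start the shares were 17.2% (15.6 to 18.9%) and 12.8% (12.6 to 13.1%). In peaks of 1 to 2 kb they were 36.6% (35.0 to 38.2%) with a start and 15.8% (14.9 to 16.8%) without, and both of these intervals met those of the broad peaks. Counted over the whole interval, 59.4% of broad peaks with a start and 31.0% of those without met a CTCF peak. CTCF summits numbered 2.95 per 10 kb in broad peaks with a start and 1.30 in those without. Over all broad peaks there were 2.01 summits per 10 kb, against 1.57 in narrower ones, and the broad peaks had the higher density on 20 of 23 chromosomes. The density did not rise steadily with width: it was 2.13 at 1 to 1.5 kb, 2.16 at 1.5 to 2 kb, 2.13 at 2 to 3 kb and between 1.81 and 1.84 in the wider classes. Counted by any overlap in place of summits, the order was the reverse, with 2.19 CTCF peaks per 10 kb in broad and 3.42 in narrower peaks.

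**Figure D4:**
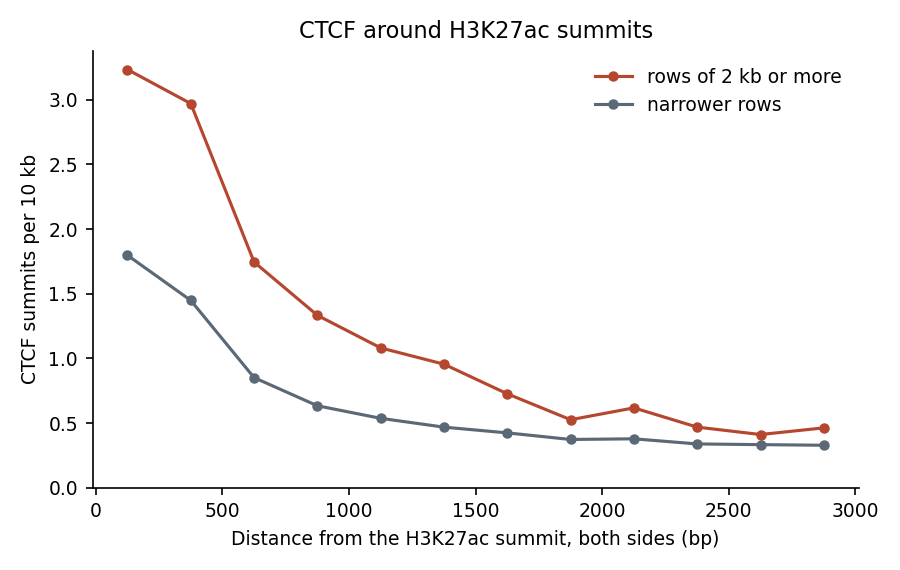
CTCF summits per 10 kb against distance from the H3K27ac summit, in bins of 250 bp on both sides together, for broad (red) and narrower (grey) peaks. The density falls from 3.23 to 0.46 around broad peaks and from 1.80 to 0.33 around narrower ones over 3 kb.

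Within broad peaks CTCF lay toward the middle. Of the 1999 CTCF summits inside them, 537 (26.9%) were between 40 and 50% of the width from the nearer end and 222 (11.1%) were within 10% of it, which cover an equal length. The median distance from the H3K27ac summit was 465 bp. Counted around the summit whether inside the peak or beyond it, CTCF summits numbered 3.23 per 10 kb within 250 bp of a broad summit. They fell to 0.73 at 1500 to 1750 bp, a distance that can lie outside the peak. Around narrower peaks the density fell from 1.80 to 0.42 over the same distances. For CTCF peaks that met a broad peak by at least 1 bp, the median CTCF signal, the authors' peak value on a scale that is not stated, was 55.4, against 79.2 in CTCF peaks that met narrower H3K27ac peaks and 97.0 in those that met none. Peaks of exactly 800 bp, a width that recurs in the CTCF list and goes with low signal, made up 48.1% of those meeting broad peaks, 38.8% of those meeting narrower peaks and 33.4% of all. Without them the median signal was 116 at broad peaks, 158 at narrower ones, 144 where no H3K27ac peak was met and 145 over all. The strongest 10% of CTCF peaks supplied 6.47% (5.51 to 7.58%) of the CTCF peaks at broad H3K27ac, against 12.5% (11.9 to 13.1%) at narrower H3K27ac. The share of the strongest CTCF peaks was not recomputed by summits. When only CTCF summits inside the H3K27ac interval were counted, the median signal lay between 50.3 and 55.6 in the 4 classes under 2 kb and between 49.2 and 58.1 in the 4 classes from 2 kb on. The share of 800 bp CTCF peaks then lay between 47.5 and 52.6% under 2 kb and between 43.97 and 54.7% from 2 kb on, so by summits the classes overlapped in both measures.

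Several CTCF peaks could share a broad interval. A single one was met by 1010 broad peaks, 2 by 350, 3 by 118 and 4 or more by 29. The largest number was 7, over CITED2, which encodes a transcriptional coregulator that binds EP300. These 7 entries overlap one another and 2 of them share an interval, so that merging leaves 1 stretch, and 6 of the 7 had signals under 60. IGF2BP3, an RNA-binding protein of fetal tissue, had 5 entries, all of 800 bp, which merge into 2. At IRS1, an adaptor of insulin signalling, 4 separate CTCF peaks with signals of 44.2, 104, 83.8 and 110 lay in a peak of 6956 bp, the highest number after merging. DNAJB12 and SRC also had 4 entries each, which merge into 3 and 2, and their strongest signals were 276 and 270. After merging, 285 broad peaks (8.16%) met 2 or more CTCF stretches. At the other extreme, the widest peak of all at ZMYND8 met none, nor did those at NES, at ZIC1 and ZIC4 (9874 bp), at ZIC1 (8816 bp) and at NUAK2 (8688 bp). The SOX2-OT peak met 1 CTCF peak with a signal of 135, and the MSI1 peak met 1 of 216 and another of 28.6.

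**Figure D5:**
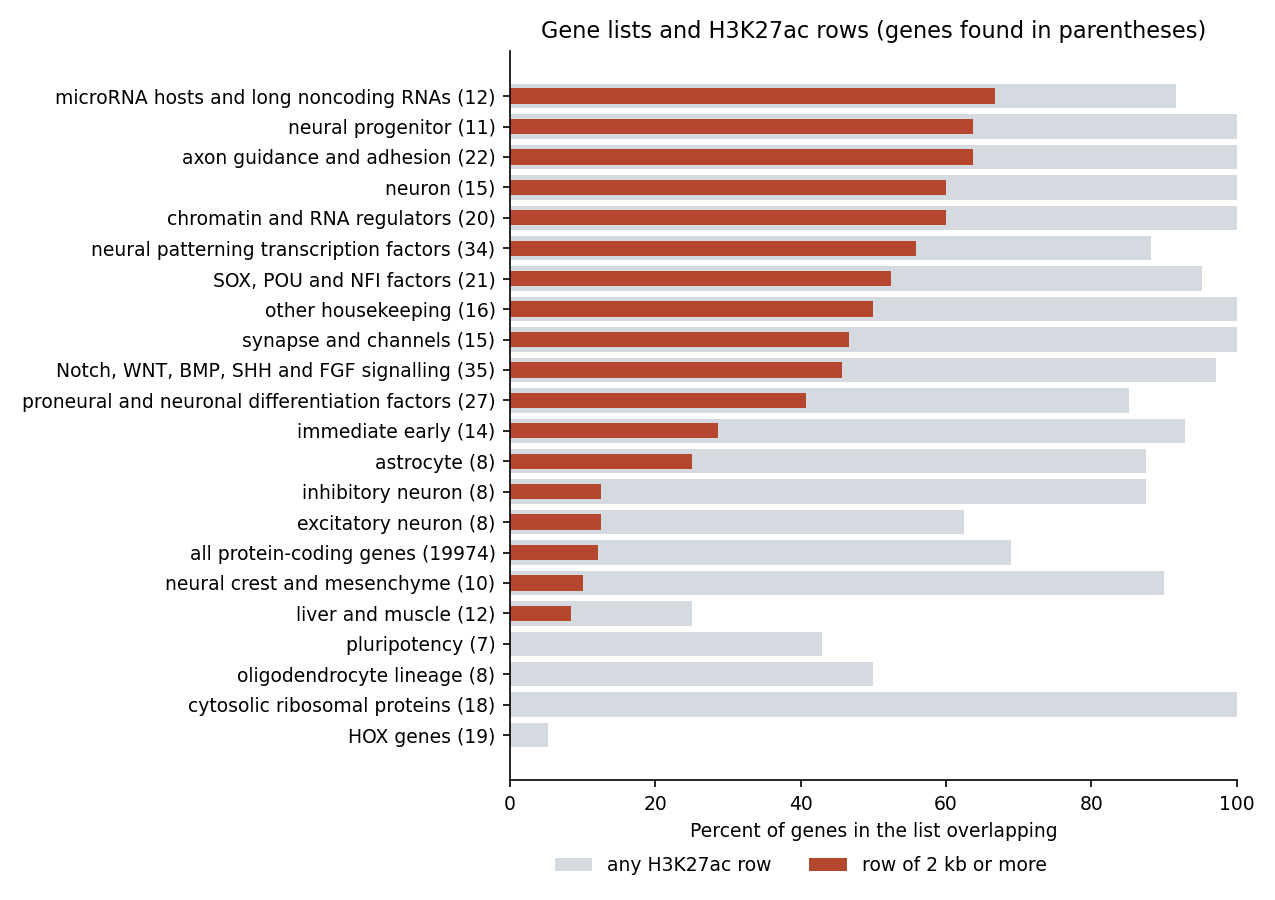
Percent of the genes in each list that overlap an H3K27ac peak of any width (grey) or a broad one (red), with the number of genes found in parentheses. Ribosomal protein genes reach 100% for any peak and 0% for broad peaks.

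Gene lists put names to the broad peaks. A broad peak was overlapped by 2406 of 19974 protein-coding genes, 12.0%, and 8.22% had a start inside one, whereas 69.0% overlapped an H3K27ac peak of any width. Long genes have more room: the median length was 57.0 kb among genes with a broad peak and 24.2 kb among all. The labelled cell type was checked first. Of 15 neuron markers 9 overlapped a broad peak and 8 had a start inside one, although the median length in this list was 88.6 kb. MAP2, a dendritic microtubule-associated protein, had a peak of 3967 bp (fold enrichment 35.9). STMN2, a tubulin-binding growth cone protein, had one of 3428 bp (17.9), and TUBB3, the neuronal beta tubulin, one of 2862 bp (28.2). MAPT, the tau gene at the centre of the wider study, had a single broad peak of 2145 bp with a fold enrichment of 12.9, which met 2 CTCF peaks.

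Neural progenitor markers carried wider peaks. Of 11 genes, with a median length of 5.40 kb, 7 overlapped a broad peak, and the median of the widest peak per such gene was 5015 bp, against 2348 bp for the neuron markers. Beside MSI1, NES and SOX2, these included SOX1 (5015 bp, fold enrichment 43.9), FABP7 (3487 bp, 28.1), a fatty acid binding protein of radial glia, and VIM (2241 bp, 38.7), an intermediate filament. Astrocyte markers had 2 of 8, S100B and GJA1. The excitatory list had only GRIN2B and the inhibitory list only GAD2, of 8 each. Of 10 neural crest and mesenchyme markers PDGFRB alone had a broad peak, and of 12 liver and muscle markers MYH7 alone. None of the 8 oligodendrocyte lineage markers and none of the 7 pluripotency markers found in the table had one, although 4 and 3 of these overlapped some H3K27ac peak.

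Transcription factors of brain patterning had broad peaks in 19 of 34 genes, and 13 had a start inside one. Apart from the ZIC genes, GBX2 (5533 bp, fold enrichment 25.9), MEIS1 (5165 bp, 31.7) and IRX2 (4181 bp, 27.6) were among those with the widest. Among SOX, POU and NFI factors 11 of 21 overlapped one, with SOX5 (4715 bp), NFIA (4634 bp) and SOX21 (4284 bp) next after SOX2 and POU3F3. The proneural and differentiation list had 11 of 27, led by ID3 (7472 bp, 23.3), an inhibitor of bHLH factors, and ZEB2 (5896 bp, 10.9). HOX genes, which pattern the hindbrain and spinal cord, had 0 of 19, and only 1 of them overlapped any H3K27ac peak.

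Signalling genes had broad peaks in 16 of 35. Receptors and ligands included FZD3 (8809 bp, fold enrichment 63.3), a WNT receptor of axon growth, JAG1 (4718 bp, 22.7), a Notch ligand, PTCH1 (4703 bp, 19.9), the SHH receptor, and FGFR1 (4495 bp, 25.6). Of the feedback inhibitors of the FGF pathway in this list, DUSP6 (7398 bp, 54.9), SPRY2 (7306 bp, 47.7) and SPRY1 (6693 bp, 48.9) had broad peaks and SPRY4 had none. The SHH effectors GLI2 (6984 bp, 21.6) and GLI3 (4276 bp, 22.5) had theirs away from a listed start, whereas the peak at GLI1 (2371 bp, 14.6) held its start. Axon guidance and adhesion genes had 14 of 22, in a list with a median length of 313 kb, but only 6 with a start inside. SEMA6A (4993 bp, 46.3), a transmembrane semaphorin, and CDH2 (4684 bp, 40.1), N-cadherin, led that list. The synapse and channel list had 7 of 15 and 2 with a start inside, and its median length was 445 kb.

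None of 18 cytosolic ribosomal protein genes overlapped a broad peak, although all 18 overlapped an H3K27ac peak. Among 16 other housekeeping genes 8 did, each with a start inside: TUBB2B (7655 bp, fold enrichment 56.7), GAPDH (5118 bp, 25.9), ACTB (4622 bp, 62.2), EEF1A1 (3067 bp, 38.6), HSPA8 (2969 bp, 57.0), ACTG1, YWHAE and PPIA. That list is not purely one of general genes, since it counts tubulins such as TUBB2B that are abundant in neurons. TUBB and TUBB2A, its other beta tubulins, had no broad peak. The lists had similar median lengths of 4.43 and 4.63 kb. Immediate early genes had 4 of 14, EGR1 (2867 bp, 37.3), MYC, JUN and IER2. Chromatin and RNA regulators had 12 of 20, led by NOVA1 (6754 bp, 31.4), a neuronal splicing factor, and KDM6B (6470 bp, 31.1), an H3K27 demethylase. Of the 12 microRNA hosts and long noncoding RNAs 8 overlapped one, and 1 of them, MALAT1 (3525 bp, 60.2), had its start inside. Of all long noncoding RNA genes 893 of 18177 (4.91%) overlapped a broad peak. The list holds the MIR9-2 hairpin but not its host MIR9-2HG, whose start lay in the broad peak of 9449 bp.

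Some genes gathered several broad peaks. There were 417 protein-coding genes with 2 or more and 30 with 5 or more. MSI2, the paralogue of MSI1, had 15, which together covered 46156 bp or 10.4% of its 446 kb. PTPRN2 followed with 10, and ZFHX3, GSE1 and SRGAP3 had 9 each. By share of the gene CHST3, a chondroitin sulfotransferase, was the highest of the 10 genes with the most broad sequence, with 5 peaks over 40.3% of 49.2 kb, and AHDC1 (24.4%) and RAI1 (17.6%) followed. Across chromosomes the broad peaks made up 2.82% of peaks on the X chromosome, the lowest share, and 5.26% on chromosome 17, the highest.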

How the data were processed

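The samples were 2 CTCF, 2 H3K27ac and 2 input libraries of neurons from 1 cell line. The authors deposited 1 peak list per antibody, which joins both libraries. Per the submitters' processing notes the reads were trimmed with cutadapt 1.16 and the build was hg38. The aligner, peak caller and settings are not given in the sources used here. The deposited H3K27ac list holds a ratio (fold enrichment at the summit, judged from the values) and −log10 q, and the deposited CTCF list holds a signal of unstated scale and −log10 q. Each deposited list also gives a score, which was not used. Gene intervals, starts and sequences came from RefSeq tables of GRCh38.p14, with known starts for 79.2% of protein-coding genes. Among those genes 7.49% had their 5′ end and 0.841% their 3′ end in a broad peak. Whether the other genes, for which both ends were counted, have similar shares was not tested.

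Overlap meant at least 1 bp. Shares have 95% Wilson intervals (scipy 1.17.1), and no p-value is given, because peaks are not replicates. Read depth is unknown. The overlap routine was tested on simulated data against bedtools. Peaks named in the text are the 10 widest, the 5 with the highest fold enrichment, the 5 meeting most CTCF peaks, the 5 widest without CTCF and without a gene, those beside the threshold, the 10 genes with the most broad sequence and examples from the gene lists. Runs, microRNAs and examples of reach around a start were added after their values were seen. The members and lists were chosen with earlier results of these data known. Alternatives varied the width threshold, the joining of peaks, the q-value, the definition of overlap and the CTCF peaks used. Some genes of the lists are counted but not reported here by name.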

Additional observations from a re-analysis of the deposited data

How the results depend on the processing

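No paired analysis was possible because each list joins both replicates and holds no values of single replicates, and leaving out each replicate was not run for the same reason. Of 21 alternatives, 6 stayed close to the main value and 15 moved. The 3494 broad peaks became 6841 at 1500 bp, 997 at 3000 bp and 7345 after joining. The share meeting CTCF (43.1%) was 40.5% for CTCF summits inside, 26.5% for summits within 500 bp, 26.96% without 800 bp CTCF peaks, 18.3% for the strongest 50% of CTCF peaks and 52.1% at 3000 bp. Narrower peaks gave 9.47% without 800 bp CTCF peaks and 7.54% with the strongest 50%. The CTCF peaks met per 10 kb (2.19) were 2.01 by summits and 1.14 without 800 bp peaks. The share overlapping a protein-coding gene (78.3%) was 79.8% at 3000 bp. The share with a start (42.8%) was 46.7% within 1 kb and 36.7% with known starts only, the last chosen after seeing the data. The median fold enrichment (20.5) was 23.7 at 3000 bp, and the median CTCF signal (55.4) was 116 without 800 bp peaks. Apart from fewer or other peaks entering, the cause of each move was not tested.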
